A study of Homo sapiens with 2 samples.

Results

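The genes described here are the 42 members of the DNA replication machinery that were listed by name for this description and are printed on the array under those names. They are the origin recognition complex, the licensing factors, the MCM helicase and its activators, the sliding clamp PCNA with its loader, the single-strand binding complex, the replicative polymerases and primase, the enzymes that finish Okazaki fragments, topoisomerase TOP2A and the enzymes that supply deoxynucleotides. These 42 genes were found among 18841 named genes of a whole-genome 60-base oligonucleotide array, and 59 probes carried their names. No measured value entered the choice, but the list was drawn up with earlier results of these data known, among them the lower signal of PCNA after siRNA treatment, so PCNA is given as a description and the question is put to its partners.

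The cells were Y79, an established line from a human retinoblastoma, grown in suspension, and 2 groups of 1 array each were compared. The first group was Y79 without siRNA, called untreated, and the second was Y79 harvested 48 h after treatment with siRNA against the epithelial cell adhesion molecule Ep-CAM. The study states that the cells of both groups had first been exposed to the demethylating agent 5′-azacytidine (AZC), which the sample labels leave out. The array comparison was made against untreated cells and not against cells given a scrambled siRNA, so an effect of transfection and an effect of Ep-CAM silencing cannot be told apart. Each condition was 1 culture of 1 cell line on 1 array, which allows no test between conditions, and no p-value is given. The study speaks of biologic replicates, but only 1 array per group was available here. Below, before and after treatment mean the untreated and the siRNA-treated group, not 1 culture followed over time.

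DNA replication begins when the origin recognition complex, CDC6 and CDT1 load the ring-shaped MCM helicase onto origins, and CDC7 kinase, CDC45 and MCM10 then help to set the helicase in motion. Behind the helicase, RPA coats single-stranded DNA, primase and polymerase alpha lay down primers, and the RFC complex loads the PCNA ring that tethers polymerases delta and epsilon to their template. FEN1 and LIG1, both of which bind PCNA, process and join the Okazaki fragments of the lagging strand. Many of these genes are known targets of E2F transcription factors, which the retinoblastoma protein restrains, and retinoblastoma cells generally lack that protein. In RNA from a whole culture, fewer cells in S phase and less replication RNA per cell cannot be told apart.

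Each value is the background-subtracted signal of a probe, in arbitrary units of brightness. The log2 ratio is the signal in siRNA-treated over untreated cells after each array was divided by the median of its non-control spots, which was 48.8 for the untreated and 50.0 for the siRNA-treated array. A gene was called lower or higher at a log2 ratio of -1 or 1, a 2-fold difference, and was represented by its brightest probe measured on both arrays. A probe was measured where the scanner software placed it well above background, as it did for 70.4% of spots before and 68.0% after treatment. Where only 1 array measured a probe, the ratio is a bound. Spots in 1 corner of the array, in rows 355 to 532 and columns 43 to 85, varied more than the others, with an SD of their log2 ratios of 0.51 against 0.29 elsewhere. Of the 57 member probes printed as a single spot, 15 (26.3%) lay in that corner, against 16.9% of all such probes. The Ep-CAM gene itself, printed as TACSTD1, read 15.6 before and 12.0 after treatment, in both cases not well above background, so the silencing could not be checked here. Of 8 photoreceptor-lineage genes with a probe, CRX, OTX2, ARR3 and AIPL1 were well above background on both arrays and NRL, RCVRN, RXRG and PDE6H on neither, and the summed signal of the list was 318 before and 280 after treatment. Of 4 Müller glia markers, 3 were well above background on both arrays (GLUL on neither), with a summed signal of 2773 and 2510, and so were all 4 lymphoid and stromal markers (PTPRC, CD3E, COL1A1 and COL1A2), with 1440 and 1394. The part of other cell types in the results was not tested.

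The probes themselves show where each measurement was taken. The 4 sequences below belong to members whose probe joins exons, so that it reads spliced RNA, and they stand for the clamp, its loader, the helicase and the primase. Each is 60 bases long, but its ends lie farther apart on the genome (build hg17), from 130 bases for RFC4 to 872 bases for MCM5. PCNA was read at chr20:5043957-5044102 (minus strand), RFC4 at chr3:187990703-187990832 (minus), MCM5 at chr22:34143861-34144732 (plus) and PRIM1 at chr12:55418551-55419378 (minus). Lower case is used throughout because no base is singled out.
PCNA: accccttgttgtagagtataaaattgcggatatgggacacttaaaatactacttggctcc
RFC4: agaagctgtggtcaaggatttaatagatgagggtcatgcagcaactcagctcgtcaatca
MCM5: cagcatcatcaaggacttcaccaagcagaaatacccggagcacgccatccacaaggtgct
PRIM1: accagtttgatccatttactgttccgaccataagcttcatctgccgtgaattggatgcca

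PCNA, the sliding clamp that holds polymerases on DNA, was lower in siRNA-treated cells at each of the 10 spots that carry its probe. In untreated cells the 10 spots ran from 1443 through a median of 1789 to 2065, and in siRNA-treated cells from 549 through a median of 627 to 714. The lowest untreated spot was above the highest siRNA-treated spot, so the arrays did not overlap. The mean log2 ratio over the 10 spots was -1.53 with an SD of 0.08 and a range of -1.66 to -1.38, a 2.90-fold lower signal. This SD is the technical spread of 1 probe on 1 pair of arrays and says nothing of the spread between cultures. The spots lay between rows 35 and 396 and columns 16 and 75, and the 1 spot in the corner of the array read -1.50 against a mean of -1.54 for the rest. Of 14812 genes measured on both arrays, 18 (0.122%) had a log2 ratio as low as that of PCNA or lower. The array carries 264 probes at 10 spots each, of which 194 were measured on both arrays, and PCNA ranked second from the lowest among them, where the median technical SD was 0.14.

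PRIM1, the catalytic subunit of the primase that starts each new strand, was the other member printed at 10 spots. Its spots ran from 60.6 through a median of 73.6 to 87.1 in untreated cells and from 53.9 through a median of 75.5 to 85.9 in siRNA-treated cells. The ranges overlapped almost entirely. The mean log2 ratio was -0.03 with an SD of 0.19 and a range of -0.30 to 0.36, with 6 of the 10 spots lower after treatment. The 3 PRIM1 spots in the corner averaged 0.02 and the others -0.05. The plot of the repeated spots sets these members side by side: every PCNA line descends, while the PRIM1 lines cross.

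**Figure D1:**
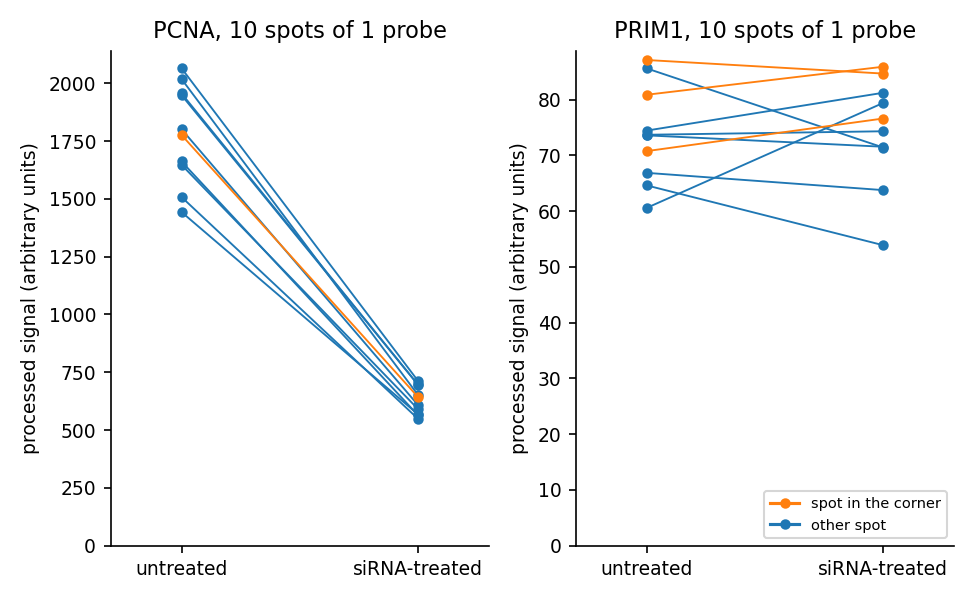
Processed signal (arbitrary units, axes from 0) of each of the 10 spots of the PCNA probe (left) and of the PRIM1 probe (right), with a line joining the same spot position in untreated and siRNA-treated cells and the spots of the array's corner in orange. All PCNA spots were lower after treatment, between 549 and 714 against 1443 to 2065, and the PRIM1 spots overlapped.

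The lower signal of PCNA was not shared at that size by any other member measured on both arrays. Of the 42 members, 33 were measured on both arrays, 2 more had a bound (MCM6 and POLA2), and 7 were well above background on neither array (CDC6, MCM3, MCM4, RFC2, PRIM2A, TOP2A and TYMS). Those 7 are 16.7% of the members, where 16.6% of all named genes were dim at every probe on both arrays. PCNA was the only one of the 35 with a ratio or bound to be called lower, where 0.988% of the 15685 genes with a ratio or bound were called lower. RRM2 was the only one called higher, where 1.28% of genes were. Counted by probe, 1 member probe was past the lower and 1 past the higher threshold, where 0.927% and 1.27% of the 29345 probes with a ratio or bound were. The median log2 ratio of the 33 measured members was -0.10, with an SD of 0.45, and without PCNA it was -0.07, with an SD of 0.38 and a range of -0.82 to 1.06. Over all measured genes the median was -0.03 and the SD 0.34. Below 0 lay 23 of the 33 members (69.7%), where 55.8% of all measured genes did, and 19 of 33 (57.6%) lay within 0.25 of 0, where 69.2% of all genes did. The median of the members was thus below that of all genes, and no test of the difference was possible. From the deposited value table it was -0.04 for both, with the members slightly the higher. That table holds raw brightness with the background left in, which shrinks ratios, and only 0.363% of genes were called lower from it.

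**Figure D2:**
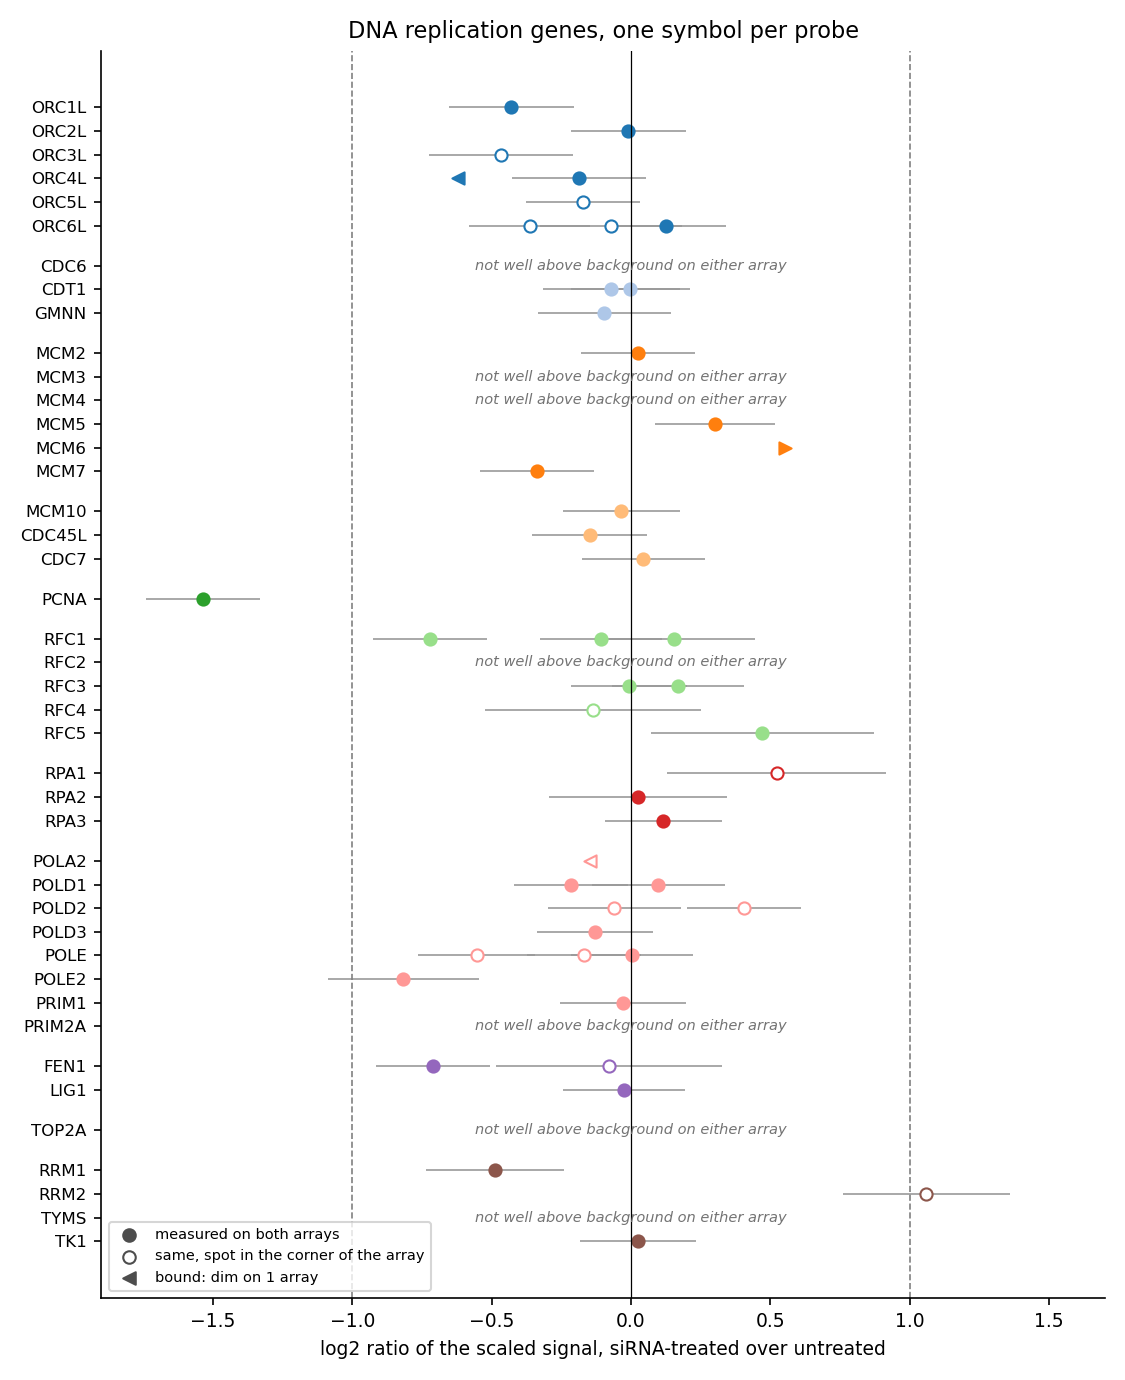
Log2 ratio of the scaled signal, siRNA-treated over untreated, for each measured probe of the 42 members, ordered and coloured by role, with the scanner software's error as a bar and dashed lines at -1 and 1. Filled circles are spots outside the corner of the array, open circles single spots inside it, and triangles bounds for probes measured on 1 array (open where in the corner). PCNA lies alone at -1.53 and RRM2 at 1.06, with the remaining measured probes between -0.82 and 0.52.

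At a smaller threshold, a log2 ratio of -0.5 or less, PCNA was joined by POLE2, RFC1 and FEN1, 4 of the 35 members where 8.03% of genes reached it. This count rests on the probe that stands for each gene. POLE stayed out with its brightest probe at -0.17, whose target was not matched to RefSeq, while its only matched probe read -0.55. At 0.5 or more lay 3 of the 35, RRM2, RPA1 and MCM6, whose untreated reading was dim, where 4.61% of genes did. The scanner software gives an error for each spot's signal, and carried to the log2 ratio it ran from 0.20 to 0.40 among the measured members, with a median of 0.21. By the probe that stands for each gene, PCNA, POLE2, RFC1 and FEN1 were lower by more than 2 such errors, where 9.08% of all measured genes were. RRM2 was the only member higher by that margin, where 3.73% of genes were. The matched POLE probe, with an error of 0.21, was also lower by more than 2 errors. These errors are the software's own estimate for a spot and not the spread between cultures or labellings. At bright probes they stayed near 0.20, so the margin there was close to a fixed cut, while the 10 PCNA spots had an SD of 0.08. In the plot of levels, the labelled genes stand off the diagonal at the bright end as well as the dim end.

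**Figure D3:**
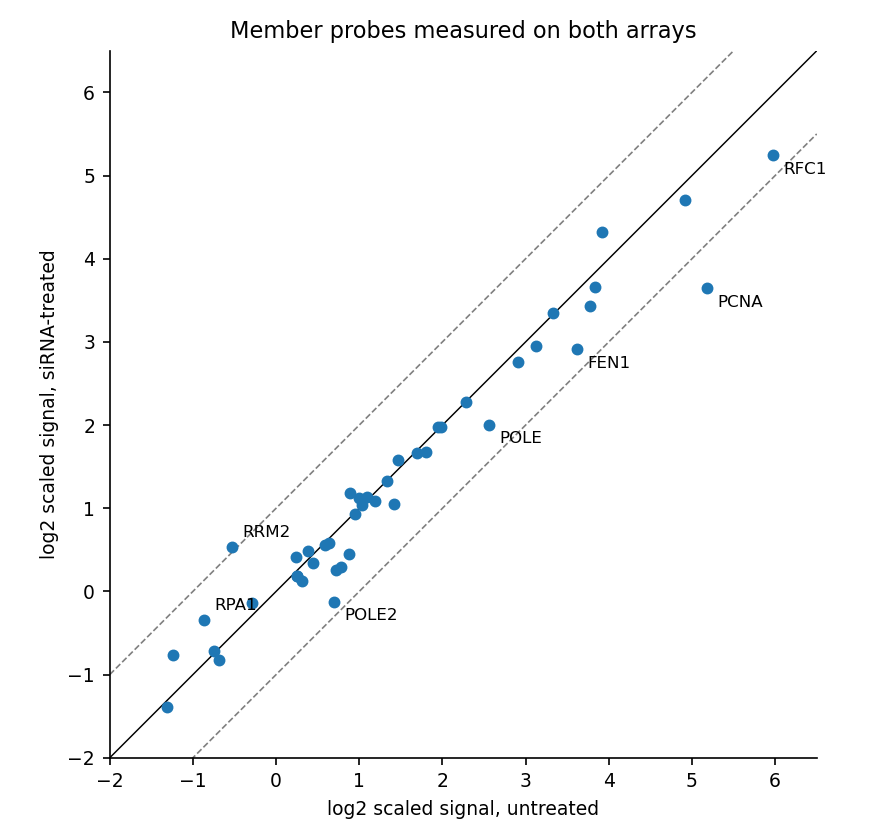
Log2 scaled signal in untreated (x) against siRNA-treated cells (y) for each member probe measured on both arrays, with a solid line at equal signal and dashed lines at a 2-fold difference, and names at probes with a log2 ratio of 0.5 or more either way. PCNA lies below the lower dashed line, RRM2 just above the upper one, and POLE2, RFC1, FEN1, POLE and RPA1 lie between the dashed lines.

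The 6 subunits of the origin recognition complex, which marks the sites where replication starts, were all measured, and all 6 had a log2 ratio below 0. Of all measured genes 55.8% lay below 0. The median of the 6 was -0.27 and their range -0.47 to -0.01, so none reached -0.5. ORC1L read 89.8 without and 68.4 with siRNA, a log2 ratio of -0.43, and ORC3L read 80.5 and 59.7, a log2 ratio of -0.47 from a spot in the corner of the array. ORC2L was level at 193 and 197, and ORC5L read 697 and 634, a log2 ratio of -0.17 from a spot in the corner. ORC4L read 60.6 and 54.6 at its brighter probe, a log2 ratio of -0.19, and its second probe read 26.2 in untreated cells and was not well above background after treatment, at least 1.54-fold lower. The 3 probes of ORC6L did not run one way, with log2 ratios of -0.36, 0.12 and -0.07. The first of these, the brightest, stands for the gene, but its target was not matched to a RefSeq entry, and the brighter of the matched probes is the one at 0.12. The unmatched probe lay in the corner, where the 75 measured spots within 5 rows and 5 columns of it had a median of -0.32. The part of position in the ORC6L value was not tested.

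Among the licensing factors, which load the helicase once per cell cycle, CDT1 read 123 without and 126 with siRNA, with log2 ratios of -0.00 and -0.07 at its 2 probes. GMNN, which encodes the CDT1 inhibitor geminin, read 66.2 and 63.4, a log2 ratio of -0.10. CDC6, an ATPase that works with the origin recognition complex, could not be measured on either array.

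The MCM2 to MCM7 proteins form the ring of the replicative helicase, and their probes showed no common direction. MCM2 read 490 and 510, a log2 ratio of 0.03. MCM5 read 90.1 and 114, a log2 ratio of 0.30. MCM7 read 667 and 540, a log2 ratio of -0.34. These 3 genes lay on either side of 0, with a median of 0.03. MCM6 was dim at 16.7 before treatment and read 25.1 after it, a log2 ratio of 0.55 with a scanner error of 0.44. Its bound is this ratio itself, because the dim signal exceeded the lowest signal well above background, 14.9. MCM3 and MCM4 were dim on both arrays. The factors that activate the helicase stayed near 0: MCM10 read 159 on both arrays, CDC45L, the helicase subunit that joins the ring on activation, read 365 and 338, and CDC7, the kinase that phosphorylates the ring, read 104 and 110, with log2 ratios from -0.15 to 0.04.

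RFC1, the large subunit of the complex that opens the PCNA ring and loads it, gave different ratios at its 3 probes. At chr4:39135644-39135703 (hg17, minus strand) its brightest probe went from 3057 to 1900 after treatment, 1.65-fold lower, a log2 ratio of -0.72. Around this spot, at row 326 and column 57, the 86 measured neighbours had a median of -0.03. A second probe, at chr4:39112641-39112700, read 112 and 106, a log2 ratio of -0.11, and the remaining probe, whose target was not matched to a RefSeq entry, read 39.8 and 45.4, a log2 ratio of 0.16. The lower value of RFC1 therefore rested on 1 probe of 3. Of the small subunits, RFC3 read 238 and 243, a log2 ratio of -0.01, and RFC4 read 30.4 and 28.3, a log2 ratio of -0.14. RFC5 read 20.7 and 29.5, a log2 ratio of 0.47 with a scanner error of 0.40. RFC2 was dim on both arrays, so the loader had no shared direction.

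None of the 3 subunits of RPA, which protects single-stranded DNA at the fork, had a ratio below 0. RPA2 read 29.2 and 30.4, a log2 ratio of 0.02, and RPA3 read 134 and 149, a log2 ratio of 0.12. RPA1, the subunit that makes most of the contact with DNA, read 26.7 and 39.3, a log2 ratio of 0.52 with a scanner error of 0.39. Its spot lay in the corner of the array, where 51 measured neighbours had a median of 0.28 and 8 of them were past 1. The part of that position in the RPA1 value was not tested.

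The polymerase subunits included POLE2, the lowest member after PCNA. POLE2, the B subunit of the leading-strand polymerase epsilon, read 79.1 before and 46.0 after treatment at chr14:49192161-49192220 (hg17, minus strand). This was 1.76-fold lower, a log2 ratio of -0.82 with a scanner error of 0.27, and 1.98% of measured genes had a ratio as low. The spot, at row 4 and column 20, had 60 measured neighbours with a median of -0.10. POLE2 has a single probe on the array. POLE, the catalytic subunit of the same enzyme, had 3 measured probes. The brightest, at chr12:132023861-132023920, read 425 and 387, a log2 ratio of -0.17, but its target was not matched to a RefSeq entry and it lies outside the stretch held by the other POLE probes. The probe at chr12:131819323-131819382 read 288 and 201, a log2 ratio of -0.55 from a spot in the corner, and the one at chr12:131874240-131874299 read 99.8 and 102, a log2 ratio of 0.00, and its target too was not matched. The POLE probes thus differed by more than 0.5, as did those of RFC1 and FEN1, 3 of the 8 members with several measured probes, where 23.9% of such genes did.

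Polymerase delta, which extends Okazaki fragments together with PCNA, was near its untreated level at most probes. POLD1, its catalytic subunit, read 1472 and 1300, a log2 ratio of -0.21, and 63.7 and 69.8 at a dimmer probe, a log2 ratio of 0.10. POLD2 read 740 and 1003, a log2 ratio of 0.40, at one probe and 76.0 and 74.6, a log2 ratio of -0.06, at another, both in the corner. The first POLD2 probe, which stands for the gene, was not matched to a RefSeq target, and the second was. POLD3 read 170 and 159, a log2 ratio of -0.13. POLA2, the B subunit of the priming polymerase alpha, read 18.9 in untreated cells and was not well above background after treatment, at least 1.11-fold lower, and PRIM2A, the large primase subunit, was dim at both probes.

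FEN1, the flap endonuclease that trims the 5′ ends of Okazaki fragments, read 601 without siRNA and 376 with it at chr11:61320446-61320505 (hg17, plus strand). This was 1.64-fold lower, a log2 ratio of -0.71, and the 79 measured neighbours of the spot had a median of -0.02. A second FEN1 probe, at chr11:61320605-61320663, read 19.8 and 19.2, close to the background, a log2 ratio of -0.08 from a spot in the corner. LIG1, the ligase that seals the fragments, read 94.5 and 95.1, a log2 ratio of -0.02, so the enzymes of this step had different ratios. TOP2A, which untangles the daughter molecules, read 3.16 and 4.01 and was dim on both arrays.

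The deoxynucleotide enzymes held the highest member and no shared direction. RRM2, the small subunit of ribonucleotide reductase, read 33.9 before and 72.3 after treatment at chr2:10221085-10221144 (hg17, plus strand). This was 2.08-fold higher, a log2 ratio of 1.06 with a scanner error of 0.30, and 0.783% of measured genes had a ratio as high. The spot lay in the corner of the array, at row 507 and column 61, where 65 measured neighbours had a median of 0.04, with 0 past 1 and 2 past -1. The part of that position in the RRM2 value was not tested. A second RRM2 probe, at chr2:10219972-10220031, read 3.36 and 4.16 and was dim on both arrays, which leaves the higher call on 1 spot. RRM1, the large subunit of the same enzyme, read 83.8 and 61.2, a log2 ratio of -0.49. TK1, the thymidine kinase of the salvage route, read 189 and 197, a log2 ratio of 0.02, and TYMS, thymidylate synthase, was dim on both arrays.

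The map of spot positions places these values on the array. The PCNA spots were dark at every position, and the POLE2 spot, the RFC1 spots and the brighter FEN1 spot lay outside the corner. The dimmer FEN1 spot and the measured spots of RRM2 and RPA1 lay inside it. With the corner left out, 27 members were measured, their median was -0.02 and that of all genes was -0.02. PCNA was then still called lower, where 0.695% of genes were. No member was called higher, where 0.439% of genes were, because the measured RRM2 spot was gone.

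**Figure D4:**
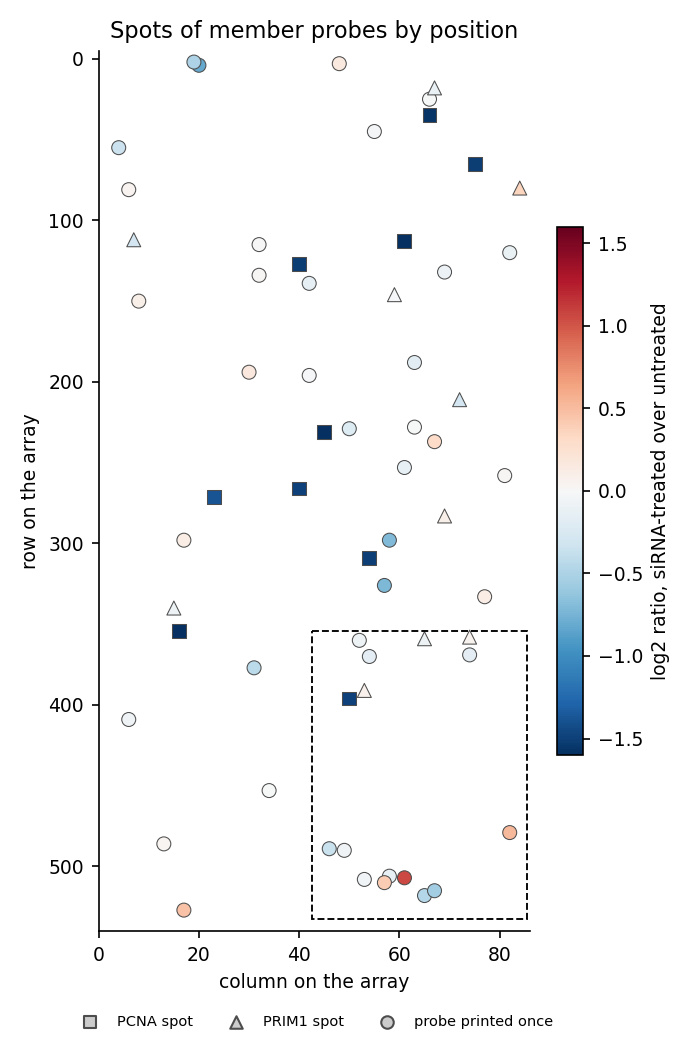
Row and column on the array of each member spot measured on both arrays (spots in rows 355 to 532 and columns 43 to 85 inside the dashed box), coloured by the log2 ratio of siRNA-treated over untreated, with squares for PCNA, triangles for PRIM1 and circles for probes printed once. The 10 PCNA spots are dark blue wherever they lie, and the darkest red circle, RRM2, lies inside the box.

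Replication genes outside the 42 were taken from a list of 40 names, of which 38 had a probe, 29 were measured on both arrays and 2 had a bound. Their median log2 ratio was -0.07 with a range of -0.99 to 0.26, and 18 of the 29 lay below 0. None was called lower or higher at a 2-fold difference. At -0.5 or less lay 6 of the 31 with a ratio or bound, where 8.03% of all genes did, and at 0.5 or more lay 0 of them, where 4.61% did. GINS1, a subunit of the GINS complex that joins MCM and CDC45 in the active helicase, read 156 before and 80.2 after treatment, a log2 ratio of -0.99. GINS4, of the same complex, read 3726 and 2375 at one probe and 1044 and 739 at the other, log2 ratios of -0.68 and -0.53, while GINS2 and GINS3 had log2 ratios of 0.06 and -0.11. POLE4, a small subunit of polymerase epsilon like POLE2, read 2224 and 1171 at one probe and 42.1 and 25.6 at the other, log2 ratios of -0.96 and -0.75, while POLE3 had a log2 ratio of 0.07. The first POLE4 spot lay in the corner, among 86 measured neighbours with a median of -0.25, and the second did not. Among proteins that bind PCNA, DNMT1, the maintenance DNA methyltransferase, and UNG, which removes uracil from DNA, both had a log2 ratio of -0.64, the DNMT1 spot in the corner. UHRF1, which guides DNMT1 to newly replicated DNA, had a log2 ratio of -0.58. KIAA0101, another PCNA-binding protein, had a log2 ratio of 0.05, and CDKN1A, the p21 inhibitor that binds PCNA, one of -0.07. GINS and polymerase epsilon thus each held subunits at -0.5 or less beside subunits near 0.

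**Figure D5:**
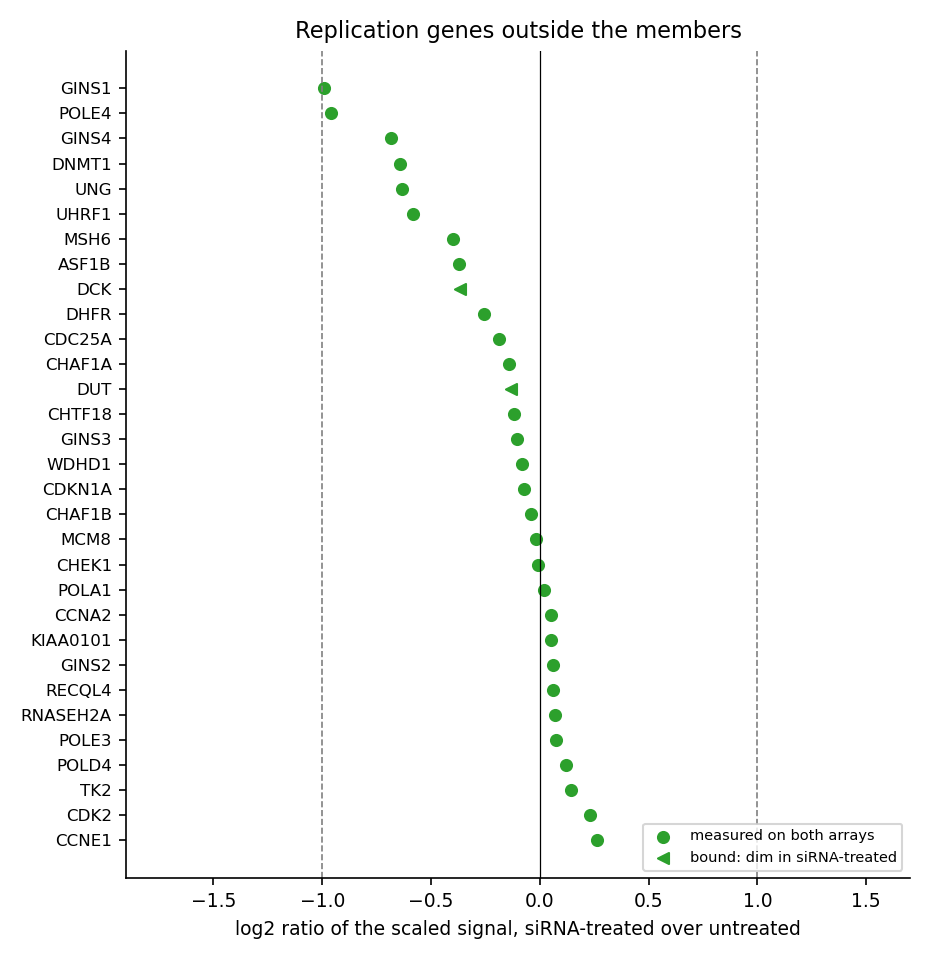
Log2 ratio of the scaled signal, siRNA-treated over untreated, for the 31 replication genes outside the 42 members with a ratio (circles) or a bound (triangles), sorted by value, with dashed lines at -1 and 1. GINS1 at -0.99 and POLE4 at -0.96 lie nearest the lower line, and CCNE1 at 0.26 is the highest.

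Many promoters of the members held a sequence pattern that the choice of the list did not use. The RefSeq sequence from 250 bases before to 50 after each transcription start (assembly GRCh38.p14) was searched on both strands for the E2F-type patterns TTTCGCGC, TTTGGCGC and TTTCCCGC, and a gene with several starts counted where any of them held a match. Of the 37 members with an entry, 16 (43.2%) held at least 1 match and 5 held several, against 902 of 27305 genes with an entry (3.30%) and 717 of 15843 protein-coding genes (4.53%). A match is a run of letters and not a bound site. The 3 promoters below were chosen because their genes share the pattern but had the lowest, the second lowest and a level ratio, and the capitals mark the match. PCNA lies at chr20:5126573-5126872 on the minus strand (its other listed start held no match), POLE2 at chr14:49688165-49688464 on the minus strand and MCM2 at chr3:127598161-127598460 on the plus strand. The sequences are written in the direction of transcription, so that GCGGGAAA in PCNA and GCGCCAAA in POLE2 are patterns read on the opposite strand, and the match in MCM2 is an overlapping pair on both strands.
PCNA: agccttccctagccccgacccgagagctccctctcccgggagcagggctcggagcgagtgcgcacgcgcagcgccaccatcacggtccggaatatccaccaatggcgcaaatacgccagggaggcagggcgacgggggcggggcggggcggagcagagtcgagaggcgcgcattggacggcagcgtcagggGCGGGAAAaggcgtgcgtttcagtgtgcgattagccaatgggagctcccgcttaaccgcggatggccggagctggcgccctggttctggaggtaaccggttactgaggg
POLE2: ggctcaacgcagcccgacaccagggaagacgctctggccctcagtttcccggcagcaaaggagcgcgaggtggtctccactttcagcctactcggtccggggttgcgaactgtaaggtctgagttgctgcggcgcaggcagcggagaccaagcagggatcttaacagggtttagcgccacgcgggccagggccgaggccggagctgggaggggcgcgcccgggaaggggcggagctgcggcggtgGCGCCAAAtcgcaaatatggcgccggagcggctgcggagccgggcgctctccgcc
MCM2: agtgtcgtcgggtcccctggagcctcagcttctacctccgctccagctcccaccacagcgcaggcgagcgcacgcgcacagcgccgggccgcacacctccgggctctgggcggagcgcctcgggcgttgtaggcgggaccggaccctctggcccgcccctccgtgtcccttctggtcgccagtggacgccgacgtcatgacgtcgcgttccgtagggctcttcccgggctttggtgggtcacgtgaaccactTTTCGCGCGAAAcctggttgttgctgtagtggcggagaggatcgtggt

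Members with and without the pattern had overlapping ratios, and the difference was not tested. The 11 measured members with a match had a median log2 ratio of -0.10 and ranged from -1.53 to 0.04, and the 18 measured members with an entry but no match had a median of -0.14 and ranged from -0.72 to 1.06. PCNA and POLE2, the lowest measured members at -1.53 and -0.82, held a match. The next lowest, RFC1 at -0.72 and FEN1 at -0.71, held none. MCM2 at 0.03 held a match, and no measured member with a match was above 0.04. These counts leave out members with a match that were dim on an array. Of those, MCM6 held 4 matches and had a log2 ratio of 0.55, and POLA2 had a bound of -0.15. CDC6, MCM3 and TYMS were dim on both arrays.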

How the data were processed

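RNA from 1 untreated and 1 siRNA-treated Y79 culture was labelled with Cy3 and hybridised to 1-colour Agilent arrays on the same slide. The deposited scanner text holds intensity values per spot that the authors extracted with Feature Extraction (version 9.5.3.1 per the file headers; probe positions on hg17), background-subtracted. A deposited value table on a linear intensity scale was found to hold the raw median brightness, and it served only as an alternative. After removal of control spots and spots the software marked as outliers, signals were scaled to the 50th percentile of their array, floored at 0.01 and log2-transformed, and repeated spots were averaged. A probe was measured where at least 50% of its spots were well above background. For a probe dim on 1 array, the bound used the higher of its own signal there and the lowest signal well above background, 14.9 before and 17.5 after treatment. Where its own signal was the higher, as for MCM6, the bound is the plain ratio and no strict limit. A gene was represented by its brightest measured probe. The arrays' number limits the precision, and no test between conditions was possible. The scripts (Python 3.11.15, pandas 2.3.3, R 4.3.3 with limma 3.58.1 for normexp) were tested on simulated data.

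All members were named by role; in full those printed repeatedly, past a log2 ratio of 0.5, or with probes differing by over 0.5. Members and lists were chosen with earlier results of these data known. All 42 names matched RefSeq, 8 of them under a newer symbol, and 1 older symbol that belonged to another gene was not used. Alternatives covered scaling, background correction, source of values, array position, choice of probe, the dim-probe filter and the threshold.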

Additional observations from a re-analysis of the deposited data

How the results depend on the processing

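PCNA was called lower under every alternative tried, with a log2 ratio between -1.99 and -1.37, and no member median changed sign. Its value was -1.37 with quantile normalization, -1.99 with normexp background correction, -1.43 from the deposited value table and -1.44 with normexp after leaving out 1 spot dimmer than its local background, an alternative chosen after seeing the data. With normexp, 3 members were called lower (FEN1, PCNA and RFC1) and 0 higher, and the median of the members was -0.32, or -0.31 without PCNA, where that of all genes was -0.26 and 753 genes were called lower and 24 higher. Without that 1 spot the all-gene median was -0.03, and PCNA was again the only member called lower, where 0.338% of genes were. At a threshold of 0.5, 4 members were lower and 3 higher, where 8.03% and 4.61% of all genes were. RRM2 lost its higher call, leaving 0, with the value table, without the corner of the array and under either form of normexp. Of all genes 1.28% were called higher in the main setting. That share was 0.332% with the value table, 0.439% without the corner, 0.153% with normexp and 0.491% with normexp less the 1 spot. The value table keeps the background, and normexp here adds 50 to each signal. Both shrink differences at spots as dim as that of RRM2, which read 33.9 and 72.3. Without the corner its measured spot is gone. The losses thus follow in part from the settings. The other alternatives made the same calls. Over all alternatives the median of the members ran from -0.32 to -0.02, and without PCNA from -0.31 to -0.02. It moved by over 1.5 times, among others, with quantile normalization (-0.04, without PCNA -0.03), after subtracting the local median (-0.05 and -0.04) and with the mean over a gene's probes (-0.06 for all members). From the value table it was -0.04 (without PCNA -0.03) where all genes had -0.04, the only alternative in which the members lay above all genes. No paired analysis was possible because each condition had 1 array. The limits are 1 array per condition, 7 members that no array measured, and single spots for most probes.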
